A study of Homo sapiens with 6 samples.

Results

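Solute carriers are membrane proteins that move amino acids, sugars, metal ions, nucleosides, inorganic anions and many other small molecules across membranes. They were taken here as the rows of both deposited tables whose gene symbol begins with SLC and a digit. That gave 135 genes of the 7681 listed. Of the 135, 3 match by name but encode no transporter: SLC2A4RG, a transcriptional regulator, and SLC9A3R1 and SLC9A3R2, scaffold proteins of sodium-proton exchange. The other 132 come from 38 numbered families and were placed in 12 groups by substrate, 1 of them for other or unassigned substrates.

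RNA was sequenced from HCT116, a human colorectal carcinoma cell line. There were 3 samples labelled Rab27B KO, with a CRISPR/Cas9 deletion of the secretory GTPase gene RAB27B, and 3 labelled wild type (WT). Both groups were left untreated in medium with serum and cultured for 48 hours; the sources used here do not say whether the knockout is 1 clone, nor how many guides were used. The study title names regulation of autophagy as its question. The data are the comparison made by the authors: each listed gene has a q-value and a log2 ratio of Rab27B KO to WT, and every listed q-value is below 0.05. Values per sample were not analysed here, so depth, spread between replicates, standard errors and absolute levels are unknown. Genes with a q-value at or above 0.05 cannot be told from genes that were not measured. No comparison here has a test beyond the q-value of each gene as deposited.

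The RNA of the targeted gene went against its label: RAB27B had a log2 fold change of 5.20 per the authors' deposited table, 36.7-fold higher, with a q-value listed as 0. Every direction below follows the column headers and says what the samples labelled Rab27B KO showed against those labelled WT. Whether labels or columns were exchanged cannot be settled from these tables; if they were, every direction, share of higher genes and rank below would turn. Of 10 markers of colon epithelium, 7 were listed, 3 higher and 4 lower; of 6 leukocyte markers 2 were listed, both higher, and of 6 fibroblast and endothelial markers 2 were listed, 1 in each direction. Whether the other markers were absent or unchanged cannot be told apart, and the part of other cells in any value below was not tested.

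As background, transporters work in circuits. In the plasma membrane, exchangers and sodium-coupled carriers bring in glucose and amino acids, and proton-coupled carriers release the lactate that glycolysis makes. Inside the cell, the SLC25 carriers pass metabolites and cofactors across the inner mitochondrial membrane, and the SLC30 and SLC39 families move zinc out of and into the cytosol. In colon cancer cells, which depend on imported nutrients, glucose, lactate and glutamine carriers are among the transporters studied most.

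More solute carrier genes were higher than lower, and most of the changes were small. Per the authors' deposited table, 91 of the 135 were higher and 44 lower in the samples labelled Rab27B KO, so 67.4% were higher, beside 50.7% of all listed genes. With the direction exchanged, 44 members would be higher, 32.6%, beside 49.3% of all listed genes. The median log2 fold change was 0.26 over the 135 genes and 0.12 over all listed genes. The higher members had a median log2 fold change of 0.35 and the lower members one of -0.54, against 0.41 and -0.41 over all higher and all lower genes. A log2 change of 1 or more in either direction was listed for 9 members, 6.67% of them, beside 12.6% of all listed genes, and 83 members changed by less than 0.5. The family was not listed more often than other genes: 139 of 383 RefSeq protein-coding genes with a solute carrier symbol were in the tables, some under an older symbol, 36.3%, beside 37.9% of all RefSeq protein-coding genes.

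**Figure D1:**
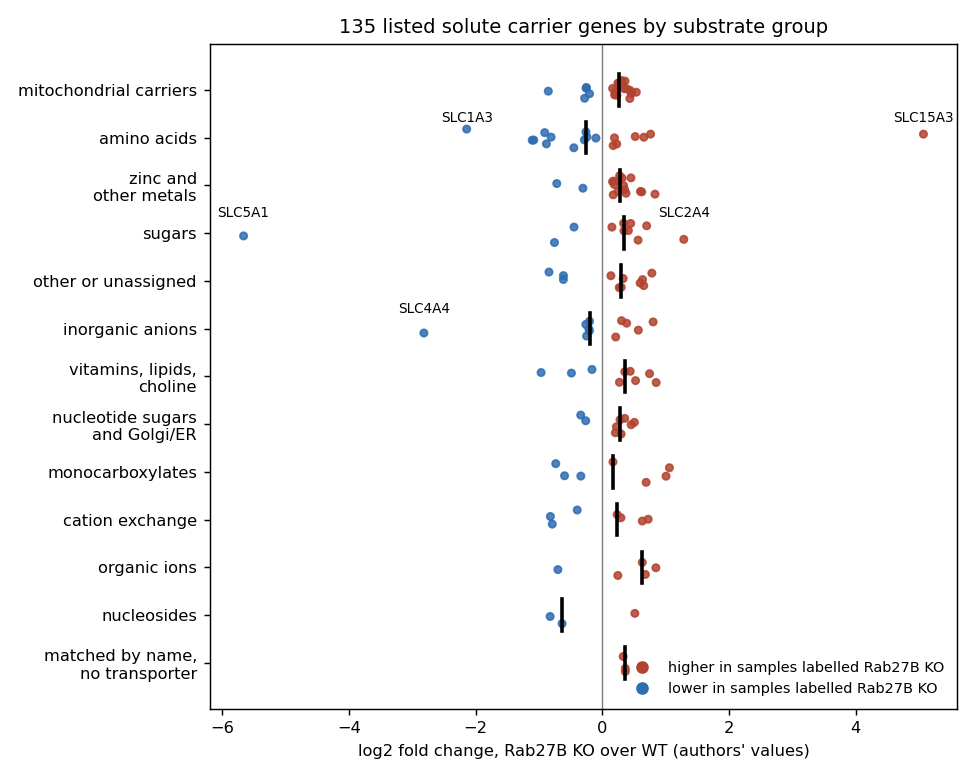
Log2 fold change of Rab27B KO over WT (x axis, authors' values) for each of the 135 listed solute carrier genes, by substrate group (y axis); each point is 1 gene, black bars are group medians and vertical scatter is only for visibility. Most points lie within 1 of zero, and the 5 labelled genes include the largest rise, SLC15A3 at 5.07, and the largest fall, SLC5A1 at -5.66.

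**Figure D2:**
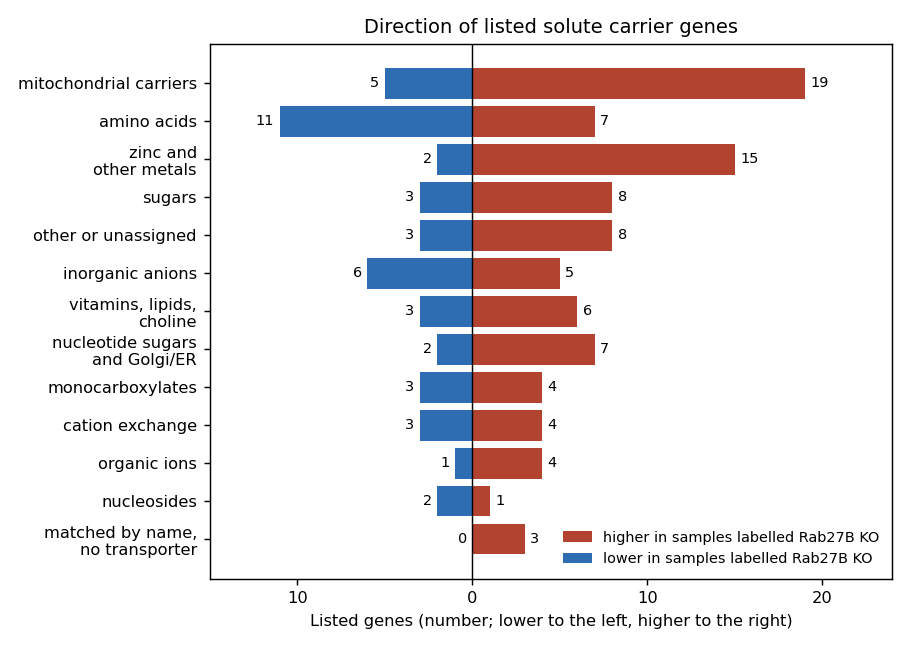
Number of listed genes higher (right) and lower (left) in the samples labelled Rab27B KO for each group (y axis). Metals with 15 higher and 2 lower and mitochondrial carriers with 19 higher and 5 lower lean to the right, and amino acids with 7 higher and 11 lower lean to the left.

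Metal and mitochondrial carriers were mostly higher, and amino acid, anion and nucleoside carriers were not. The shares that were higher, beside 50.7% of all listed genes, were 88.2% for metals and 79.2% for mitochondrial carriers. The shares were 80% for the 5 listed genes grouped under organic ions and 77.8% for nucleotide sugars and other Golgi and ER substrates. The shares were 72.7% each for sugars and for other or unassigned substrates. They were 66.7% for vitamins, lipids and choline and 57.1% each for monocarboxylates and cation exchange. They were 38.9% for amino acids, 45.5% for inorganic anions and 33.3% for nucleosides, the last with only 3 listed genes. Differences between groups were not tested.

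Promoter sequence was compared for members with small q-values in each direction, since it is where transcription factors that respond to oxygen, zinc or amino acids bind. RefSeq promoter windows on GRCh38.p14 were found for 101 of the 132 transporter genes, 155 windows in all, and read from 250 bases before the start. Each line below runs 5′ to 3′ from 250 to 21 bases before a RefSeq start and overlaps no GENCODE exon of its own gene. Capitals mark ACGTG on either strand, the core of sites bound by hypoxia-inducible factors, which also lies inside the E-box CACGTG of MYC and related factors. These 4 were picked with their values in view. They are not the members with the smallest q-values: among lower members SLC43A3 (q = 1.25e-43) was not shown. SLC16A3 (chr17:82228792-82229021, plus strand, a start within the gene) and SLC4A2 (chr7:151062297-151062526, plus strand, also within the gene) were higher per the authors' deposited table, and SLC1A3 (chr5:36596338-36596567, plus strand) and SLC7A1 (chr13:29595709-29595938, minus strand) were lower.
SLC16A3: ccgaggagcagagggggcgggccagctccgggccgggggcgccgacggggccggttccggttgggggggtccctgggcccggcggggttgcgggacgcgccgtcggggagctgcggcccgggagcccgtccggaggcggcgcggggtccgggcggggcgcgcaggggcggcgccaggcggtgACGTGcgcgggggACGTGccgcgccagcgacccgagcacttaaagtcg
SLC4A2: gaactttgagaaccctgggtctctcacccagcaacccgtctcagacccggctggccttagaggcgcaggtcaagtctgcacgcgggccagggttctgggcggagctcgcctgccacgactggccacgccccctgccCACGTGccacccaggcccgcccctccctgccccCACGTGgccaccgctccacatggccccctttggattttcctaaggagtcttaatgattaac
SLC1A3: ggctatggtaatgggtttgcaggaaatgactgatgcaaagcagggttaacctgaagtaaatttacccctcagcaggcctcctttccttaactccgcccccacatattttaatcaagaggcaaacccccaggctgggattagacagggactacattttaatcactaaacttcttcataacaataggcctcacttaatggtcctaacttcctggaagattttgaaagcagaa
SLC7A1: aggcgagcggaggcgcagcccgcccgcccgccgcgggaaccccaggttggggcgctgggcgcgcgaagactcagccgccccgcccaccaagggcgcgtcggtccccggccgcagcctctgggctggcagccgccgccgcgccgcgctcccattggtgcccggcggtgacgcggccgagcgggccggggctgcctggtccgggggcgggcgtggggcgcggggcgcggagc

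The SLC16A3 stretch holds ACGTG at 68 and 55 bases before the start, and the SLC4A2 stretch holds CACGTG at 114 and 81 bases before it. The SLC1A3 and SLC7A1 stretches hold none. Genes with several starts have several windows, and the contrast between these 4 stretches depends on which was shown. The other windows of SLC16A3 and some other windows of SLC4A2, among them its window furthest upstream, hold no ACGTG. A further SLC4A2 window, which overlaps the one shown, does hold ACGTG. Another window of SLC1A3 holds it 80 bases before its start. ACGTG was found in 19.8% of the windows of higher members, 25.9% of those of lower members and 18.5% of all 35116 RefSeq windows. CACGTG was in 9.90% of windows of higher members, 11.1% of those of lower members and 6.34% of all windows. The wider form NCGTG was in 74.3%, 59.3% and 61.1%, in the same order. The metal response element TGCNCNC, the site of the zinc-sensing factor MTF1, was in 8 of 25 windows of metal carriers, beside 49.1% of all windows. TGATGNAA, the amino acid response element bound by ATF4, was in 2.58% of the windows of the transporter genes and in 3.14% of all windows. These matches describe letters only, and genes with several starts count several times.

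Glucose carriers changed in both directions. The largest fall of any solute carrier was that of SLC5A1, the sodium-coupled glucose carrier of the intestinal brush border (gene ID 6523; GRCh38 chromosome 22, 32043261 to 32113029). Its log2 fold change was -5.66 per the authors' deposited table, 50.7-fold lower with q = 3.47e-05, the 20th lowest of all listed genes. That q-value is large for the fold, at rank 4352 from the smallest of all listed genes. How many reads lie behind the value is unknown. SLC2A3, the high-affinity glucose carrier GLUT3, was 1.69-fold lower per the authors' deposited table (log2 -0.76, q = 2.00e-19). SLC2A1, the widely expressed carrier GLUT1, was 1.33-fold higher per the authors' deposited table (log2 0.41, q = 6.61e-29). SLC2A4, the insulin-responsive carrier GLUT4 of muscle and fat, had the largest rise of the group at 2.44-fold per the authors' deposited table (log2 1.28, q = 8.82e-08). GLUT1 and GLUT3 thus stood on opposite sides of zero; their RNA levels, and so their joint effect on total carrier RNA, are unknown.

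The other sugar carriers included members that act inside the cell. SLC2A6 was 1.62-fold and SLC2A8, an intracellular glucose carrier, 1.27-fold higher per the authors' deposited table. Of the sugar-phosphate carriers of the SLC37 family, SLC37A3 and SLC37A2 were 1.48-fold and 1.36-fold higher, and SLC37A1 was 1.36-fold lower per the authors' deposited table. SLC37A4, which carries glucose 6-phosphate into the ER, was 1.11-fold higher per the authors' deposited table, and SLC50A1 1.26-fold. All 4 reference genes of SLC37 were listed, beside 37.9% of all RefSeq protein-coding genes.

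Lactate and other monocarboxylate carriers held the smallest q-value of the whole family. SLC16A3, or MCT4, which exports lactate from glycolytic cells (chromosome 17 of GRCh38, 82217934 to 82240086), rose 2.01-fold per the authors' deposited table (log2 1.00, q = 3.35e-116). SLC16A1, or MCT1, which carries lactate in either direction, was 1.12-fold higher per the authors' deposited table (log2 0.17, q = 0.00314). SLC16A6 and SLC16A13 were 2.08-fold and 1.61-fold higher per the authors' deposited table. SLC16A7, or MCT2, was 1.67-fold, SLC16A9 1.51-fold and SLC16A5 1.27-fold lower per the authors' deposited table. BSG (basigin), the chaperone that brings MCT1 and MCT4 to the membrane, had a log2 fold change of 0.55 (q = 7.75e-61) and its relative EMB (embigin) one of -0.51 per the authors' deposited table. MCT4 and its chaperone were thus both higher, whereas MCT2 and embigin were both lower.

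**Figure D3:**
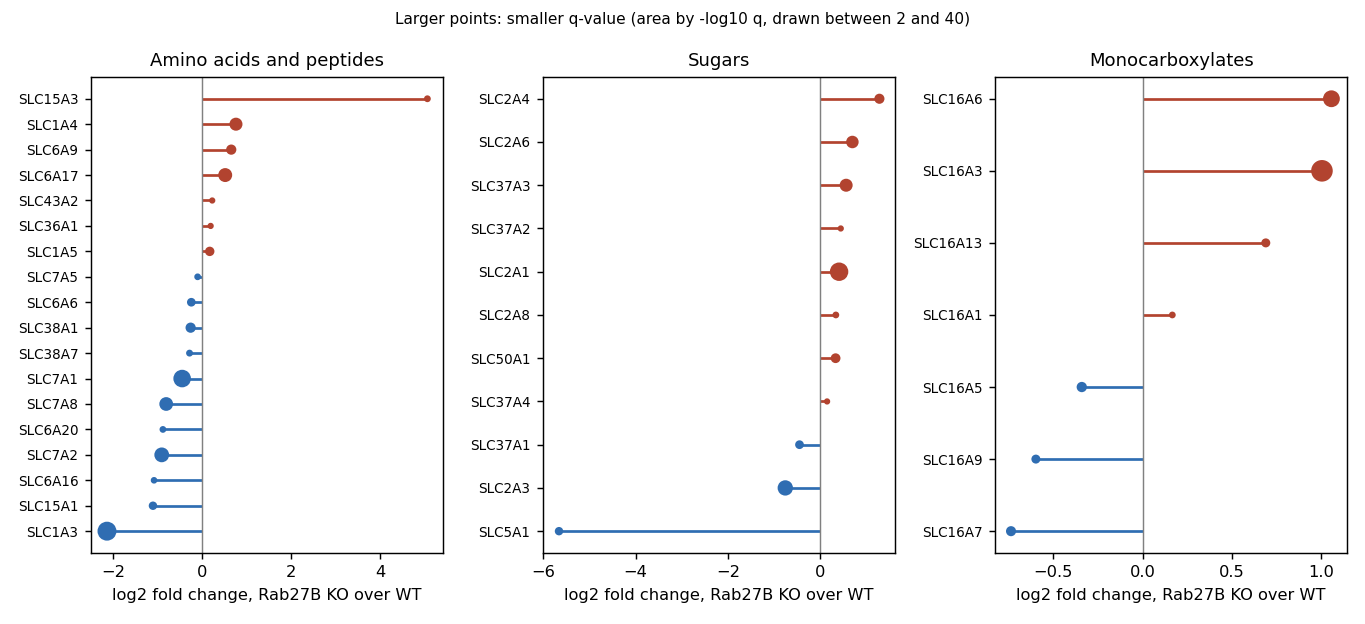
Log2 fold change of Rab27B KO over WT (x axes, separate scales) for the listed carriers of amino acids and peptides, sugars and monocarboxylates (y axes), each point 1 gene with an area that grows with −log10 q. The largest points include SLC16A3 at 1.00 and SLC1A3 at -2.14, while SLC15A3 and SLC5A1 lie far out with smaller points.

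Amino acid and peptide carriers were lower more often than higher, with 11 lower and 7 higher. Among carriers of acidic and neutral amino acids, SLC1A3, a glutamate and aspartate importer (GRCh38 chromosome 5, 36596588 to 36688334), was 4.41-fold lower per the authors' deposited table (log2 -2.14, q = 1.04e-30). Its relatives of the same family, SLC1A4 and SLC1A5, which exchange small neutral amino acids including, for SLC1A5, glutamine, were 1.69-fold (q = 1.33e-13) and 1.12-fold (q = 1.26e-06) higher per the authors' deposited table. The glutamine carriers SLC38A1 of the plasma membrane and SLC38A7 of the lysosome were 1.20-fold and 1.22-fold lower per the authors' deposited table. The SLC1 family was therefore split, with its glutamate importer lower and its neutral exchangers higher.

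All 4 listed members of SLC7 were lower, beside 49.3% of all listed genes. SLC7A1 lies on chromosome 13, where only 13.5% of all listed genes were higher. SLC7A2, SLC7A5 and SLC7A8 lie on chromosomes 8, 16 and 14, where 53.6%, 53.5% and 54.2% were. The part of position was not tested. SLC7A1 and SLC7A2, importers of arginine and lysine, had log2 fold changes of -0.45 (q = 4.54e-26) and -0.91 (q = 6.68e-18) per the authors' deposited table. SLC7A8, a light chain that exchanges large neutral amino acids, had one of -0.81 per the authors' deposited table. SLC7A5, the leucine exchanger LAT1, changed least of all 135 members, with a log2 fold change of -0.10 (q = 0.00364) per the authors' deposited table. SLC3A2, the heavy chain that LAT1 needs, and SLC7A11, the cystine importer that uses the same heavy chain, were in neither table. The SLC7 falls thus included cationic amino acid carriers and LAT-type light chains, and 4 of 14 reference genes of the family were listed, beside 37.9% of all RefSeq protein-coding genes.

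The SLC6 carriers went both ways. SLC6A9, a glycine importer, was 1.57-fold and SLC6A17, a neutral amino acid carrier of vesicles, 1.43-fold higher per the authors' deposited table. SLC6A6, the taurine importer, was 1.18-fold, SLC6A20, an imino acid carrier, 1.85-fold and SLC6A16, a member of uncertain substrate, 2.12-fold lower per the authors' deposited table. Among lysosomal and other exporters, SLC36A1 was 1.14-fold and SLC43A2 1.17-fold higher per the authors' deposited table.

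The 2 peptide carriers moved apart. SLC15A3, a peptide and histidine carrier of lysosomes known from immune cells (gene ID 51296; GRCh38 chromosome 11, 60937084 to 60952176), had the largest rise of any solute carrier, a log2 fold change of 5.07 or 33.5-fold per the authors' deposited table (q = 0.00279), the 15th highest of all listed genes. SLC15A1, the peptide importer of the small intestine, was 2.16-fold lower per the authors' deposited table (log2 -1.11, q = 3.25e-05). SLC15A1 lies on chromosome 13, where 13.5% of all listed genes were higher. The q-value of SLC15A3 is large for its fold, the gene overlaps the coding gene TMEM132A, and how many reads lie behind its value is unknown.

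Zinc carriers of the SLC39 family, which bring zinc into the cytosol, were higher in 7 of 8 listed cases, beside 50.7% of all listed genes. SLC39A14, which imports zinc, manganese and iron, was 1.54-fold higher per the authors' deposited table (log2 0.62) with q = 4.33e-53, the smallest of the metal group. SLC39A7, which releases zinc from the ER, and SLC39A9 were 1.26-fold and 1.28-fold higher per the authors' deposited table. SLC39A13, SLC39A3, SLC39A1 and SLC39A6 had log2 fold changes between 0.18 and 0.27 per the authors' deposited table. The exception was SLC39A10, a zinc importer of the plasma membrane (GRCh38 chromosome 2, 195613029 to 195737700), at 1.65-fold lower per the authors' deposited table (log2 -0.72, q = 3.04e-19). SLC39A10 therefore moved against the other listed members of its family.

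Of the SLC30 family, which moves zinc out of the cytosol, 3 of 10 reference genes were in the tables, beside 37.9% of all RefSeq protein-coding genes. SLC30A3, which loads vesicles, and SLC30A5, which loads the secretory pathway, were 1.24-fold and 1.19-fold higher per the authors' deposited table. SLC30A9, which moves zinc out of mitochondria, was 1.24-fold lower per the authors' deposited table (log2 -0.31, q = 2.38e-07). SLC30A1, the main zinc exporter of the plasma membrane, was in neither table.

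The listed members of the SLC11, SLC31, SLC41 and SLC48 families, which carry iron, copper, magnesium and heme, were all higher. They were few, 3 in SLC41 and 1 in each of the others, and 50.7% of all listed genes were higher. Carriers of these metals elsewhere were not all so: the mitochondrial iron importer SLC25A37 and FLVCR1, a choline and heme carrier without the SLC symbol, had log2 fold changes of -0.28 and -0.42 per the authors' deposited table. SLC31A2, a copper carrier of endosomes and lysosomes, had the largest rise of the metal group, 1.78-fold per the authors' deposited table (log2 0.83, q = 2.28e-06). SLC11A2 (DMT1), the proton-coupled iron importer, was 1.29-fold and SLC48A1, which exports heme from endosomes and lysosomes, 1.37-fold higher per the authors' deposited table. SLC40A1 (ferroportin), the iron exporter, was not listed, while its partner in the gut, the ferroxidase HEPH, had a log2 fold change of -2.56 (q = 0.00042) per the authors' deposited table. TFRC, the transferrin receptor, stood at a log2 fold change of 0.37 per the authors' deposited table. The magnesium carriers SLC41A1, SLC41A2 and SLC41A3 were 1.12-fold, 1.52-fold and 1.13-fold higher per the authors' deposited table. All 3 reference genes of that family were thus listed, beside 37.9% of all RefSeq protein-coding genes.

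**Figure D4:**
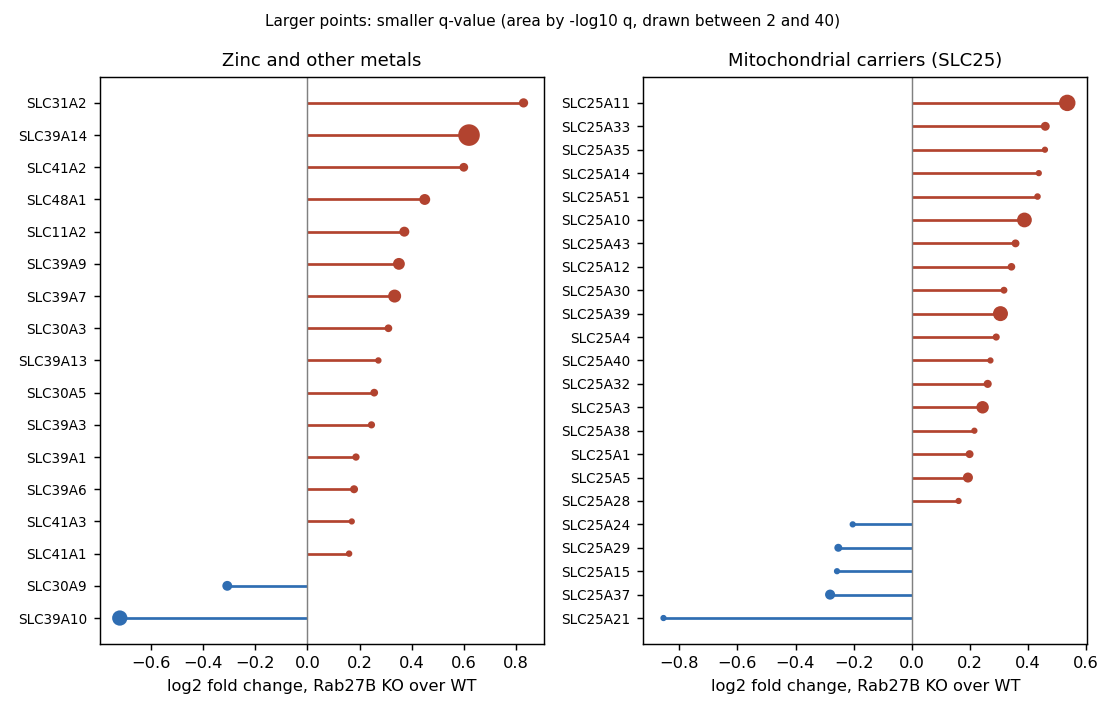
Log2 fold change of Rab27B KO over WT (x axes) for the 17 listed metal carriers and 23 of the 24 listed mitochondrial carriers (y axes), each point 1 gene with an area that grows with −log10 q. The rises are small, up to 0.83 among metal carriers and 0.53 among mitochondrial carriers, and the falls of SLC39A10 and SLC25A21 are as large or larger than most rises.

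Of the mitochondrial carriers, 24 of 48 reference genes were listed, beside 37.9% of all RefSeq protein-coding genes. These were 19 higher and 5 lower, with a median log2 fold change of 0.27. No member reached a log2 change of 1. SLC25A11, which exchanges 2-oxoglutarate for malate, was 1.45-fold higher per the authors' deposited table (log2 0.53, q = 1.31e-22). The dicarboxylate carrier SLC25A10, the aspartate-glutamate carrier SLC25A12 and the citrate carrier SLC25A1 were 1.31-fold, 1.27-fold and 1.15-fold higher per the authors' deposited table. The phosphate carrier SLC25A3 and the ADP/ATP carriers SLC25A4 and SLC25A5 had log2 fold changes of 0.24, 0.29 and 0.19 per the authors' deposited table. The ADP/ATP carriers have near-identical copies, and their reads may be shared; SLC25A6 was in neither table.

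The other higher members include carriers of cofactors and nucleotides. SLC25A39, a glutathione importer, and its relative SLC25A40 were 1.24-fold and 1.21-fold higher per the authors' deposited table. SLC25A51, which imports NAD, was 1.35-fold and SLC25A32, a folate and flavin carrier, 1.20-fold higher per the authors' deposited table. SLC25A33, a pyrimidine nucleotide carrier, was 1.37-fold and SLC25A38, a glycine carrier of heme synthesis, 1.16-fold higher per the authors' deposited table. The uncoupling protein relatives SLC25A14 and SLC25A30 were 1.35-fold and 1.25-fold and the less studied SLC25A35 and SLC25A43 1.37-fold and 1.28-fold higher per the authors' deposited table.

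The 5 lower mitochondrial carriers were of different kinds. SLC25A21, an oxodicarboxylate carrier, had the largest change of the family, 1.81-fold lower per the authors' deposited table with q of only 0.0112. SLC25A15, the ornithine carrier, and SLC25A29, a carrier of basic amino acids, were each lower, at 1.20-fold and 1.19-fold per the authors' deposited table. SLC25A24, which exchanges ATP and magnesium for phosphate, was 1.15-fold lower per the authors' deposited table. The iron importers SLC25A37 and SLC25A28, or mitoferrins, moved apart, with log2 fold changes of -0.28 (q = 9.65e-08) and 0.16 (q = 0.0186) per the authors' deposited table.

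Anion carriers had no common direction, with 5 higher and 6 lower. Among bicarbonate carriers, SLC4A2, a chloride-bicarbonate exchanger, was 1.48-fold higher per the authors' deposited table (log2 0.57, q = 4.16e-53). SLC4A7, a sodium-bicarbonate importer, was 1.74-fold higher per the authors' deposited table (q = 2.27e-27). SLC4A4, another sodium-bicarbonate carrier, was 7.05-fold lower per the authors' deposited table (log2 -2.82) but with q = 0.00342. SLC4A11, placed here by its family number and not as a bicarbonate carrier, was 1.19-fold lower per the authors' deposited table. The cation-chloride cotransporters SLC12A2, which brings chloride in, and SLC12A7, which lets it out, were both lower, at log2 -0.21 (q = 0.000876) and -0.21 (q = 0.000588) per the authors' deposited table. Of their kinases, WNK1 and STK39 had log2 fold changes of -0.51 and -0.77 and OXSR1 one of 0.52 per the authors' deposited table.

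The phosphate importers SLC20A1 and SLC20A2 moved apart, with log2 fold changes of 0.38 (q = 6.30e-20) and -0.20 (q = 0.0208) per the authors' deposited table. XPR1, which exports phosphate, stood at 0.47 per the authors' deposited table. SLC26A11 and SLC26A6 were 1.23-fold and 1.16-fold higher per the authors' deposited table.

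Of the nucleoside group 3 of 9 reference genes were listed, beside 37.9% of all RefSeq protein-coding genes. SLC29A1, or ENT1, the main equilibrative nucleoside carrier and a route of entry for nucleoside drugs, was 1.43-fold higher per the authors' deposited table (log2 0.51, q = 2.52e-32). SLC43A3, which carries purine nucleobases, was 1.77-fold lower per the authors' deposited table (log2 -0.83) with q = 1.25e-43, the smallest q-value of all lower solute carriers. SLC29A4, which also carries monoamines, was 1.55-fold lower per the authors' deposited table. SLC29A2 was in neither table.

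Carriers that supply the Golgi and ER were mostly higher, 7 against 2. The UDP-sugar carriers SLC35D1, SLC35A3 and SLC35A2 were 1.42-fold, 1.37-fold and 1.23-fold higher per the authors' deposited table. SLC35B1, which brings ATP into the ER, SLC35B2, which brings the sulfate donor into the Golgi, and SLC33A1, which brings acetyl-CoA into the ER, were 1.21-fold, 1.17-fold and 1.28-fold higher per the authors' deposited table. SLC35C2 was 1.15-fold higher, and SLC35D2 and SLC35A5 were 1.27-fold and 1.20-fold lower per the authors' deposited table.

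For cation exchangers the split was 4 higher and 3 lower. SLC9A2, a sodium-proton exchanger, was 1.65-fold (q = 4.73e-05) and SLC8B1, the sodium-calcium exchanger of mitochondria, 1.17-fold higher per the authors' deposited table. SLC9B2, SLC24A1 and SLC9A3, an apical sodium-proton exchanger of the gut, were 1.77-fold, 1.73-fold and 1.32-fold lower per the authors' deposited table. The scaffolds SLC9A3R1 and SLC9A3R2, matched by name only, were 1.28-fold and 1.25-fold higher per the authors' deposited table, and SLC2A4RG was 1.28-fold higher.

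Lipid and vitamin carriers included 5 of 6 reference genes of the fatty acid transport family SLC27, beside 37.9% of all RefSeq protein-coding genes listed. SLC27A4 was 1.44-fold higher per the authors' deposited table (q = 3.58e-22), with SLC27A6, SLC27A5 and SLC27A1 1.67-fold, 1.36-fold and 1.28-fold higher and SLC27A2 1.96-fold lower (q = 2.24e-20). SLC44A2, a choline-like carrier, was 1.40-fold lower and SLC52A2, a riboflavin importer, 1.20-fold higher per the authors' deposited table. SLC46A3, a lysosomal carrier, was 1.80-fold higher and the vitamin C importer SLC23A2 1.12-fold lower per the authors' deposited table.

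Among carriers of organic ions, SLC17A5 (sialin), the lysosomal sialic acid exporter, was 1.60-fold higher per the authors' deposited table (q = 1.34e-28). SLC22A31 and SLC10A3 were 1.79-fold and 1.55-fold and the creatine importer SLC6A8 1.18-fold higher per the authors' deposited table, and SLC10A4 was 1.63-fold lower. SLC22A31, SLC10A3 and SLC10A4 stand here with their families, and these data do not show what they carry. Of the reference genes of this group 5 of 52 were listed, 9.62%, beside 37.9% of all RefSeq protein-coding genes.

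The 11 members of other or unassigned substrate were 8 higher and 3 lower. SLC35E4, SLC35F3, SLC35G1 and SLC49A3 were 1.72-fold, 1.57-fold, 1.55-fold and 1.51-fold higher per the authors' deposited table. SLC22A17, SLC35F6, SLC22A23 and SLC38A10 had log2 fold changes between 0.13 and 0.33 per the authors' deposited table. SLC35F2 was 1.53-fold lower per the authors' deposited table (q = 6.57e-28). SLC35E2B and SLC35E2A, near-identical neighbours 34590 bases apart on chromosome 1, were 1.53-fold and 1.79-fold lower per the authors' deposited table, and reads may be shared between them.

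Direction was also counted by place in the genome. Of the 18 members on chromosomes 4, 7, 13 and 15, where listed genes in general were mostly lower, 7 were higher and 11 lower, 38.9% higher, beside 22.9% of all listed genes there. Chromosome 7 went the other way, with 3 of its 4 members higher. On the other chromosomes 84 were higher and 33 lower, 71.8% higher, beside 55.5% of all listed genes there. On chromosome 17, 14 of 15 members were higher, beside 55.3% of all listed genes there, and on the X chromosome all 7 were, beside 55.8%; these chromosomes were chosen after their values were seen. Higher members had a median gene span of 20.8 kb and lower members one of 59.3 kb, against 22.9 kb and 41.5 kb for all higher and all lower listed genes. The part of position and gene length in the direction was not tested. Of the 135 members, 32 overlap another protein-coding gene in RefSeq, and since the sources used here do not state whether counting used strand, reads of such pairs cannot be told apart.

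A list of 47 partners, regulators and relatives without the SLC symbol was written from general knowledge. Of these 28 were listed, 59.6%, beside 37.9% of all RefSeq protein-coding genes. There were 20 higher and 8 lower, 71.4% higher, beside 50.7% of all listed genes. The higher genes include the relatives UCP2, MTCH2, MPC2, SLCO1B3, SLCO3A1, SLCO4A1, XPR1, ANKH, MFSD2A, MFSD12 and NPC1. The lower genes were EMB, MYC, HNF4A, WNK1, STK39, NEDD4L, HEPH and the relative FLVCR1. These relatives are counted again among the 41 genes of the last section, so the counts overlap. No share was computed for partners and regulators alone. The mitochondrial pyruvate carrier subunit MPC2 had a log2 fold change of 0.95 (q = 1.09e-30) per the authors' deposited table, and its partner MPC1 was not listed. The uncoupling protein UCP2, a member of the mitochondrial carrier family, stood at 0.95 as well per the authors' deposited table. The organic anion carriers SLCO3A1, SLCO1B3 and SLCO4A1 had log2 fold changes of 1.63, 1.16 and 0.65 per the authors' deposited table. Of transcription factors that act on transporter genes, HIF1A, EPAS1 and ATF4 had values of 0.48, 0.36 and 0.31 per the authors' deposited table. MYC had one of -0.53 and HNF4A one of -2.97 (q = 1.69e-76) per the authors' deposited table. MTF1 and NFE2L2 were in neither table. SGK1, a kinase that keeps transporters at the membrane, and NEDD4L, a ubiquitin ligase that removes them, had log2 fold changes of 1.17 and -0.28 per the authors' deposited table.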

How the data were processed

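The authors deposited 2 tables that give no sample's own values. Their columns, per the file headers, are the log2 fold change of Rab27B KO over WT and the q-value from the authors' test, and the table of higher genes also gives the linear ratio. The submitters' processing notes name HISAT, Bowtie2 and GRCh38. Not given in the sources used here are how each was used, the counting and scaling of reads, and the test. Both tables hold only genes with a q-value below 0.05. The series' design text calls the 3 samples of each genotype biological replicates; nothing says how the cultures were kept apart.

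Members were the rows whose symbol, without quotes, begins with SLC and a digit. Substrate groups followed the family number, with exceptions by gene. Members and lists were chosen with earlier results of these data known. Gene IDs were matched to RefSeq GRCh38.p14: 7656 of 7681 matched, and all 135 members. Folds of lower genes were computed as 2 to the power of minus the log2 value. The design foresaw a test on values per sample where given; without these, the authors' q-values were used and no test was added. The naming rule took per group the 4 smallest q-values, the largest rise and the largest fall, and over all members the 10 largest of each; other members are also given, and were seen with their values. A few members are counted but not reported by name here. Counting and motif search were tested on simulated data. Python 3.11.15, pandas 2.3.3 and matplotlib 3.10.9 were used.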

Additional observations from a re-analysis of the deposited data

How the results depend on the processing

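The counts and the median were recomputed under 5 other choices fixed at the start and 1 chosen after seeing the data. Of the 5, the choice to leave out chromosomes 4, 7, 13 and 15 was not independent of the data. Listed genes there were mostly lower, and the lists were chosen with earlier results of these data known. At an absolute log2 change of at least 1 few members were left: 4 higher and 5 lower. All listed genes were 469 higher and 499 lower at that cut. The median log2 fold change of the members left was -1.08, so the sign of the median turned. With 4 genes on one side of the cut and 5 on the other, that sign follows from the counts alone. By group the cut left 1 higher and 3 lower amino acid carriers and 1 higher and 1 lower sugar carrier. Among monocarboxylate carriers it left 2 higher and 0 lower, and among anion carriers 0 higher and 1 lower. It left 0 in either direction for metals, mitochondrial carriers, cation exchange, nucleosides, nucleotide sugars, organic ions, vitamins and lipids, the unassigned group and the genes that encode no transporter. The lean towards higher genes thus rests on small changes. At a q-value below 0.01, 3 lower mitochondrial carriers were left. Without chromosomes 4, 7, 13 and 15, 1 lower member was left in each of cation exchange, nucleosides and metals, and 0 among organic ions. The other counts and medians moved by no more than 1.5 times under these alternatives. With RefSeq symbols and synonyms, without rows that encode no transporter, and without SLC15A3 and SLC5A1 (added after seeing the data), the overall counts and the median moved by less than 1.5 times. No paired analysis was possible because the tables hold no values per sample, and leaving out replicates or another normalization could not be run for the same reason. Depth is unknown, so a gene missing from the tables cannot be called unchanged.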

Other observations

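Genes that RefSeq now names or lists as solute carriers, but that the tables print under another symbol, numbered 41. Of these 27 were higher and 14 lower, so 65.9% were higher, beside 50.7% of all listed genes. They were matched by symbol or synonym, and genes that encode no transporter were not removed. Some of them, such as UCP2, MPC2, XPR1, FLVCR1 and the SLCO genes, were also in the list of partners and relatives above. PQLC2L and MFSD14C, for example, have the RefSeq symbols SLC66A1LP and SLC71A3P, which end as pseudogene symbols do. The median log2 fold change of the 41 was 0.34, beside 0.12 over all listed genes, but their mean was -0.06. At a log2 change of 1 or more 3 of the 41 were higher and 6 lower, beside 469 and 499 of all listed genes. Among the lower ones, MFSD14A (SLC71A1) had a log2 fold change of -1.81 with q = 5.45e-58 per the authors' deposited table, a smaller q-value than that of any lower member found by symbol, and its paralog MFSD14B stood at 0.32. STRA6, a retinol importer, and NIPAL2, a magnesium carrier relative, had log2 fold changes of -3.84 and -1.43 per the authors' deposited table. Among the higher ones were RHCE at 1.66, the magnesium carrier CNNM4 at 0.70 and MFSD2A, a lysophospholipid carrier, at 0.79 per the authors' deposited table. All genes named here were picked with their values in view.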
